A study of Mus musculus with 6 samples.

Results

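Expression of 9 genes that build very-low-density lipoprotein (VLDL) or remodel lipoproteins in plasma was examined in livers lacking hepatocyte serine hydroxymethyltransferase 2 (Shmt2), the mitochondrial enzyme that passes a one-carbon unit from serine to folate. The genes were Mttp, Tm6sf2 and Sar1b, which act in lipoprotein assembly and export; Lcat, Lipc, Lipg and Pltp, which code for secreted enzymes and a transfer protein; and Angptl4 and Angptl8, which code for secreted inhibitors of lipoprotein lipase. They were taken by gene symbol from a list set by function, and all 9 were found among the 49671 genes of the count table and were among the 16089 genes tested. Liver RNA came from male C57BL/6J mice on the AMLN diet, a feed rich in fat, fructose and cholesterol, given from 4 weeks of age for 18 weeks. The controls were SHMT2fl/fl mice (n = 3), labelled WT, which carry both loxP-flanked Shmt2 alleles and no Cre. The knockouts were SHMT2HKO mice (n = 3), labelled KO, which carry the same alleles and Cre under the Albumin promoter, so that deletion is directed to hepatocytes. The paper proposes that non-parenchymal liver cells keep SHMT2. Shmt2 was not measured by cell type here. Every mouse had the floxed alleles and the AMLN diet, and no group with Cre alone and no chow-fed group is analysed here.

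The liver packages triglyceride into VLDL in the endoplasmic reticulum (ER), where the microsomal triglyceride transfer protein loads lipid onto apolipoprotein B, and the particle then leaves in COPII vesicles. In plasma, lipoprotein lipase on capillary walls hydrolyses the triglyceride, and ANGPTL proteins restrain it. Hepatic and endothelial lipase act on remnants and high-density lipoprotein (HDL), LCAT esterifies HDL cholesterol, and PLTP moves phospholipid between particles.

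The libraries held 23090837 to 34089722 gene counts each, with 20936 to 24340 genes detected, so that 3 counts corresponded to 0.0734 to 0.152 CPM (counts divided by the scaled library size and multiplied by 1000000). Shmt2 was 99.2 ± 8.51 CPM in SHMT2fl/fl and 24.2 ± 4.51 CPM in SHMT2HKO livers (SD, n = 3 each), a log2 fold change of -2.04 ± 0.16 (SE; edgeR quasi-likelihood test, adjusted p = 0.000639). CPM values below use edgeR's TMM scaling, with factors of 1.12 to 1.21 in SHMT2fl/fl and 0.80 to 0.98 in SHMT2HKO libraries, and fold changes are SHMT2HKO over SHMT2fl/fl. The median log2 fold change of all genes was 0.03 with TMM, -0.40 without it, -0.69 when libraries were scaled to the ERCC spike-in RNAs, and -0.53 when they were scaled to 10 hepatocyte markers, a scaling chosen after seeing the data. With TMM, 2012 genes were called higher and 2651 lower (adjusted p under 0.05). Without TMM the split was 539 and 4923, with ERCC scaling 107 and 2759, and with hepatocyte marker scaling 243 and 3919. The ERCC share of counts varied from 1.35% to 2.75% among SHMT2HKO libraries and from 1.42% to 1.84% among SHMT2fl/fl libraries.

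The cell types seen in the RNA also differed between genotypes. The summed level of 10 hepatocyte markers was 56181 to 69089 CPM in SHMT2fl/fl and 70793 to 109512 CPM in SHMT2HKO livers, and 2 of the 10 were called higher. All 8 cholangiocyte markers were called lower, with sums of 1048 to 1306 against 154 to 273 CPM. Of 9 stellate cell and fibroblast markers 5 were called lower and 1 higher (1294 to 1394 against 336 to 845 CPM), and of 8 T and NK cell markers 7 were called lower (22.6 to 26.7 against 5.06 to 8.40 CPM). Of 11 Kupffer cell and macrophage markers 5 were lower and 3 higher (636 to 894 against 456 to 620 CPM). Among them Lyz2 was 385 ± 64.5 CPM in SHMT2fl/fl and 117 ± 43.0 CPM in SHMT2HKO livers (SD, n = 3 each). Clec4f was 15.5 ± 7.68 against 111 ± 39.0 CPM, so this sum joins markers that moved in opposite directions. Of 10 endothelial markers 3 were higher and 1 lower (205 to 239 against 275 to 334 CPM). One of 6 B and plasma cell markers was lower (23.0 to 27.7 against 12.5 to 29.4 CPM), as was 1 of the 4 neutrophil markers tested (7.64 to 11.8 against 4.46 to 8.15 CPM). Cfd, the only adipocyte marker tested, had a log2 fold change of 4.81, at 91.1, 62.2 and 10.9 CPM in SHMT2HKO mice 1, 2 and 3. The 5 adipocyte markers summed to 99.2, 62.4 and 11.0 CPM in these mice. In SHMT2fl/fl mice the sum was 1.15 to 2.93 CPM. Most of the sum was thus Cfd itself. No marker on these lists was at 0 in every library. In bulk RNA, fewer cells of a type and less RNA per cell cannot be told apart, and the part that this mix played in the values below was not tested.

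Mttp, Sar1b and Lipc were each about 2.1 times as high in SHMT2HKO as in SHMT2fl/fl livers and passed the test. None of the 9 genes passed it in the other direction (edgeR, 0 at an unadjusted p under 0.05 as well; 0 with DESeq2 and limma-voom). Over all genes tested, 12.5% were called higher and 16.5% lower, so 3 of 9 stands beside a background of 12.5%. The fitted log2 fold change was positive for 9 of 9 genes, with a median of 0.87, while 51.9% of all tested genes were positive. The 10 hepatocyte markers had a median of 0.62, so a positive median is not particular to the 9 genes. In 4 of the 9 genes (Mttp, Sar1b, Lipc and Lcat) every SHMT2HKO mouse lay above every SHMT2fl/fl mouse, against 21.9% of all genes tested. The direction of Tm6sf2 and Angptl8 turned negative without TMM, and ERCC scaling also turned Lcat, as given with each gene.

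**Figure D1:**
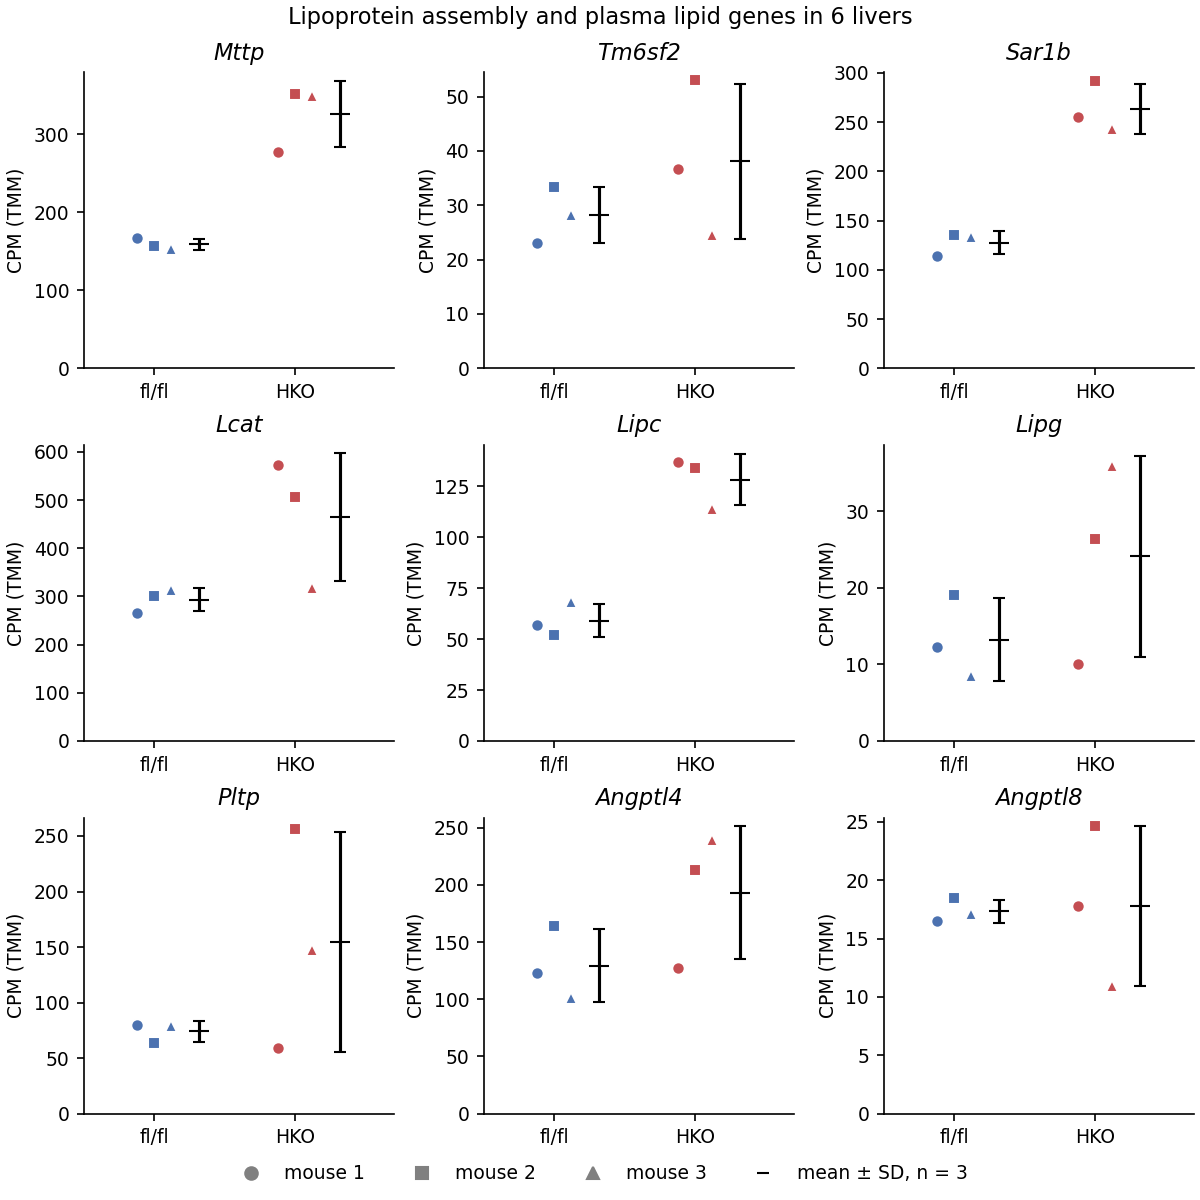
TMM-scaled CPM of the 9 genes in each liver, with SHMT2fl/fl mice in blue (fl/fl) and SHMT2HKO mice in red (HKO); marker shapes are mouse numbers, and the black bar is the mean ± SD of 3 mice. The groups do not touch for Mttp, Sar1b, Lipc and Lcat, and the HKO points of Pltp spread from 59.0 to 257 CPM.

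Mttp codes for the large subunit of the microsomal triglyceride transfer protein (chr3:138089854-138144968, minus strand, GRCm38). Its level was 167, 157 and 152 CPM in SHMT2fl/fl mice 1, 2 and 3, and 277, 352 and 349 CPM in SHMT2HKO mice 1, 2 and 3. Every SHMT2HKO mouse was above every SHMT2fl/fl mouse, and mouse 1 was the lowest of the knockouts. The log2 fold change was 1.04 ± 0.14 (SE; adjusted p = 0.00231, edgeR quasi-likelihood test), a 2.06-fold difference with a 95% interval of 1.63 to 2.59. Mttp shares 457 bases of exon with Trmt10a on the opposite strand, which averaged 116 counts per library.

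Sar1b codes for the small GTPase that starts COPII coat assembly at ER exit sites and is known for the export of large lipoproteins (chr11:51763687-51791925, plus strand). Its level was 114, 135 and 133 CPM in SHMT2fl/fl mice and 255, 292 and 242 CPM in SHMT2HKO mice. The groups were far apart relative to their SDs of 11.8 and 25.6 CPM. Its log2 fold change was 1.04 ± 0.14 (SE; adjusted p = 0.002, edgeR), a 2.06-fold difference (95% interval 1.65 to 2.57). Sar1a, the close paralogue with the same GTPase role, was 120 ± 6.22 against 120 ± 4.23 CPM, with a log2 fold change of 0.00 ± 0.11 (SE; adjusted p = 0.994, edgeR), and of -0.43 without TMM (adjusted p = 0.0281, edgeR).

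Lipc codes for hepatic lipase, which liver cells secrete and which hydrolyses triglyceride and phospholipid of remnants and HDL (chr9:70798128-70952226, minus strand). It was 57.0, 52.1 and 68.1 CPM in SHMT2fl/fl mice and 137, 134 and 114 CPM in SHMT2HKO mice. The lowest knockout was well above the highest control. Its log2 fold change of 1.12 ± 0.14 (SE; adjusted p = 0.00175, edgeR) is a 2.17-fold difference (95% interval 1.73 to 2.73). Of the genes tested, 4.14% had a larger log2 fold change, compared with 4.80% for Mttp and 4.72% for Sar1b. These 3 genes had the lowest coefficients of variation among the knockouts, 9.72% for Sar1b, 9.77% for Lipc and 12.9% for Mttp, whereas the other 6 ranged from 28.5% to 64.1%. The test sets the difference against the spread between mice, so a low spread is part of passing it and not a separate trait.

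The size of these differences depended on scaling. Without TMM the log2 fold changes were 0.62 for Mttp (adjusted p = 0.0239), 0.62 for Sar1b (adjusted p = 0.00691) and 0.69 for Lipc (adjusted p = 0.00584), all with edgeR. With hepatocyte marker scaling they were 0.51, 0.49 and 0.55 (adjusted p = 0.162, 0.109 and 0.0807, edgeR), and with ERCC scaling 0.36, 0.31 and 0.35 (adjusted p = 0.55, 0.611 and 0.597, edgeR). Under each of the 4 scalings the 3 genes stayed positive and lay above the median of all genes given earlier. A change of scaling moves all genes by a similar amount, so their place above the median is not a separate result for each scaling.

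The sequence before the start of Sar1b and Lipc, which passed the test, and of Lcat and Angptl8, which did not, is shown so that these windows can be set side by side. RefSeq promoter entries (GRCm38.p6) at the principal start were matched for 5 of the 9 genes, Sar1b, Lcat, Lipc, Pltp and Angptl8. Each line holds the 250 bases before the start, 5′ to 3′ on the strand of the gene. Capitals mark matches to 5 motifs, each searched on both strands, and none of the marked matches overlap. The nuclear receptor half-site was searched as AGGTCA, the HNF1 half-site as GTTAAT and the E-box as CACGTG. The letters searched for the CCAAT box were those of its name, and TATAAA stood for the TATA box.
Sar1b (chr11:51763413-51763662, plus strand): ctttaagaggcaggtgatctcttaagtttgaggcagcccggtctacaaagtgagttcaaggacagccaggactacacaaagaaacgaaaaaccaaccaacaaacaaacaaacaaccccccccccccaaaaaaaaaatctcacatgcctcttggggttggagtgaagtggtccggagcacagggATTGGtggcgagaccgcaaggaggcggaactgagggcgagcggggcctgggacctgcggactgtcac
Lipc (chr9:70934809-70935058, minus strand): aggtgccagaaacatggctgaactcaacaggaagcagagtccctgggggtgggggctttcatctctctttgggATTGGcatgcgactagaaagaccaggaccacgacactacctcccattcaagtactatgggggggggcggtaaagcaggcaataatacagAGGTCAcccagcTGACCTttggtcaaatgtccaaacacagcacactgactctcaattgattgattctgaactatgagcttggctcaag
Lcat (chr8:105943403-105943652, minus strand): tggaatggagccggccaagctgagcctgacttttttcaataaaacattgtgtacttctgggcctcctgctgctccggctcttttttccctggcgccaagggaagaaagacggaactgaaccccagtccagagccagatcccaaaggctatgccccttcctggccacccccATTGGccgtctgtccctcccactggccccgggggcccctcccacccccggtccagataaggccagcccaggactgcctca
Angptl8 (chr9:21835260-21835509, plus strand): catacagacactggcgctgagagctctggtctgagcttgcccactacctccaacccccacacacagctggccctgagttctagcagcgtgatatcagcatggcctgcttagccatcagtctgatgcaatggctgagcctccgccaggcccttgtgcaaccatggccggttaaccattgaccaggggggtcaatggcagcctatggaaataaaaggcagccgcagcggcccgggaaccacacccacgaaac
Positions count bases back from the start. The Lipc window held AGGTCA on the strand of the gene at -88 and its reverse complement at -76, with a CCAAT match on the reverse strand at -177. In Sar1b and Lcat the only match was a CCAAT match on the reverse strand, at -67 and -80. Pltp had 1 as well, at -182, and the Angptl8 window held none of the 5 motifs. In the same 250-base window of 32851 promoters, CCAAT was found in 33.8%, AGGTCA in 14.0%, TATAAA in 12.4%, GTTAAT in 6.43% and CACGTG in 6.02%. The matches are descriptions of letters, and no binding was measured.

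Lcat codes for lecithin-cholesterol acyltransferase, the plasma enzyme that esterifies cholesterol on HDL (chr8:105939551-105943382, minus strand). Its level was 266, 302 and 312 CPM in SHMT2fl/fl mice and 572, 507 and 317 CPM in SHMT2HKO mice. The groups did not overlap, but SHMT2HKO mouse 3 was within 5 CPM of the highest control. Its log2 fold change of 0.66 ± 0.22 (SE; adjusted p = 0.055, edgeR; 95% interval 0.15 to 1.17) did not pass the threshold. DESeq2 gave 0.67 (adjusted p = 0.0115), the fit without SHMT2HKO mouse 3 gave 0.85 (adjusted p = 0.00318, edgeR), and ERCC scaling gave -0.19 (adjusted p = 0.738, edgeR).

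Pltp codes for phospholipid transfer protein, which feeds surface lipid of VLDL into HDL (chr2:164839518-164857711, minus strand). It was 80.2, 63.2 and 78.8 CPM in SHMT2fl/fl mice and 59.0, 257 and 148 CPM in SHMT2HKO mice. One knockout, mouse 1, lay below all controls and the other two above them, a spread of 4.35-fold among knockouts against 1.27-fold among controls. The log2 fold change was 1.06 ± 0.46 (SE; adjusted p = 0.132, edgeR; 95% interval -0.04 to 2.15). It was 1.08 with DESeq2 (adjusted p = 0.027) and 1.45 without SHMT2HKO mouse 1 (adjusted p = 0.00252, edgeR), but 0.48 without SHMT2HKO mouse 2 (adjusted p = 0.369, edgeR). Pltp shares 495 bases of exon with Ctsa on the opposite strand, an abundant gene with 6156 counts per library on average, and the sources used here do not state whether counting used strand, so its level is uncertain. Ctsa itself was 202 ± 2.76 against 226 ± 10.1 CPM (SD, n = 3 each), and its part in the Pltp values was not tested. Macrophages also make Pltp, and the part of their markers, given above, in the Pltp values was not tested.

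Lipg codes for endothelial lipase, a phospholipase that acts mainly on HDL (chr18:74939322-74961263, minus strand). It was 12.3, 19.0 and 8.43 CPM in SHMT2fl/fl mice and 10.02, 26.4 and 35.9 CPM in SHMT2HKO mice. Mouse 1 of the knockouts lay inside the range of the controls, and the other two above it. Lipg's log2 fold change was 0.87 ± 0.48 (SE; adjusted p = 0.216, edgeR; 95% interval -0.26 to 1.996), and 1.25 without SHMT2HKO mouse 1 (adjusted p = 0.02, edgeR). Without SHMT2HKO mouse 3 it was 0.44, without TMM 0.49 and with ERCC or hepatocyte marker scaling 0.42, and none of these passed. The summed endothelial markers were 275, 324 and 334 CPM in SHMT2HKO mice 1, 2 and 3 and 239, 205 and 222 CPM in SHMT2fl/fl mice. Clec4g, which rose most of these markers, was 17.9 ± 7.27 CPM in SHMT2fl/fl and 68.7 ± 2.52 CPM in SHMT2HKO livers. Emcn, the marker called lower, was 7.18 ± 1.26 against 2.89 ± 0.328 CPM. The median log2 fold change of the list was 0.18. Of the 10 markers 3 were called higher and 1 lower, and 6 were not called. The part of these markers in the Lipg values was not tested.

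Tm6sf2 codes for an ER membrane protein that helps lipidate VLDL (chr8:70072924-70080066, plus strand). It was 23.0, 33.4 and 28.2 CPM in SHMT2fl/fl mice and 36.8, 53.0 and 24.6 CPM in SHMT2HKO mice. Mouse 3 of the knockouts lay inside the control range and the other two above it. For Tm6sf2 the log2 fold change was 0.43 ± 0.27 (SE; adjusted p = 0.26, edgeR; 95% interval -0.18 to 1.05). Leaving out SHMT2HKO mouse 3 gave 0.65 (adjusted p = 0.0494, edgeR), and the value was -0.02 without TMM, -0.17 with hepatocyte marker scaling and -0.40 with ERCC scaling.

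Angptl4, a fasting-induced inhibitor of lipoprotein lipase, lies at chr17:33773750-33781830 on the minus strand. Its level was 123, 164 and 101.4 CPM in SHMT2fl/fl mice and 128, 213 and 239 CPM in SHMT2HKO mice. Again mouse 1 of the knockouts was among the controls and the other two above all of them. The log2 fold change was 0.58 ± 0.26 (SE; adjusted p = 0.133, edgeR; 95% interval -0.02 to 1.17), and 0.81 without SHMT2HKO mouse 1 (adjusted p = 0.0171, edgeR). It was 0.38 without SHMT2HKO mouse 3, 0.17 without TMM, 0.08 with hepatocyte marker scaling and 0.0069 with ERCC scaling, none of which passed.

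Angptl8, which is induced by feeding and insulin, lies at chr9:21835510-21837347 on the plus strand, within the span of Dock6 on the other strand and with no shared exon. It was 16.5, 18.4 and 17.1 CPM in SHMT2fl/fl mice and 17.8, 24.7 and 10.9 CPM in SHMT2HKO mice. The controls were within 1.12-fold of each other, and the knockouts lay on both sides of them over a 2.25-fold range. The log2 fold change was 0.04 ± 0.26 (SE; adjusted p = 0.928, edgeR), with a 95% interval that runs from 0.68-fold to 1.55-fold. The sign was negative in 8 of 16 alternative fits, down to -0.83 with ERCC scaling.

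**Figure D2:**
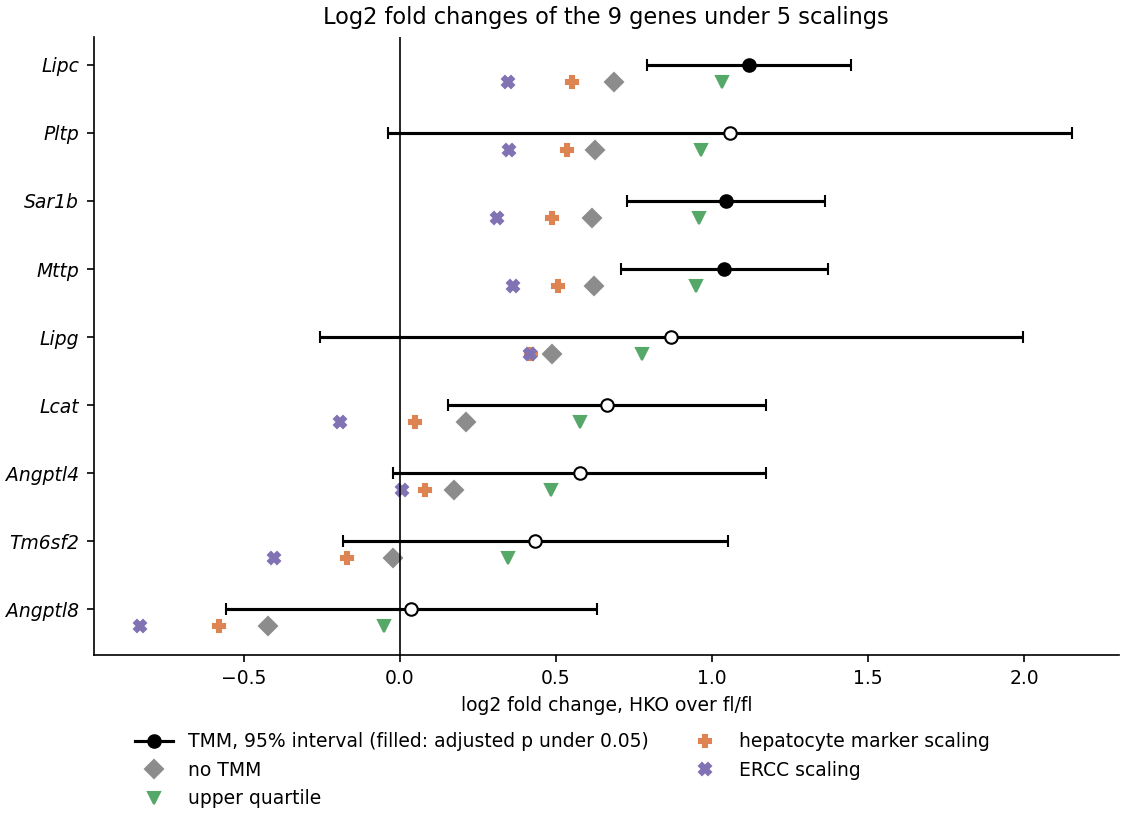
Log2 fold change of each of the 9 genes (HKO over fl/fl, 3 mice each). Circles with bars are the TMM fit and its 95% interval, filled where the adjusted p is under 0.05, and coloured markers are the fits with other scalings. Mttp, Sar1b and Lipc stay right of 0 under all of them, while Tm6sf2 moves from 0.43 to -0.40 and Angptl8 from 0.04 to -0.83.

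Leaving out single mice moved the number of the 9 genes called. It was 6 without SHMT2HKO mouse 1, in which Mttp, Pltp, Lipg and Angptl4 were the lowest of the knockouts, and 5 without SHMT2HKO mouse 3, in which Lcat, Lipc, Sar1b, Tm6sf2 and Angptl8 were the lowest. It was 3 without SHMT2HKO mouse 2 or any of the SHMT2fl/fl mice. Mttp, Sar1b and Lipc passed in each of these 6 fits. The number called higher over all genes moved too. It was 1973 of 16395 tested without SHMT2HKO mouse 1, 1129 of 16813 without mouse 2 and 2521 of 16774 without mouse 3. Without SHMT2fl/fl mouse 1, 2 or 3 it was 936 of 16262, 861 of 16556 and 805 of 16336.

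Levels were compared between genes as TPM (transcript share of a library on the same scale of 1000000), computed here from the counts and the summed exon length of each gene, without TMM. In SHMT2fl/fl livers Lcat stood first at 625 ± 35.6 TPM (SD, n = 3), followed by Sar1b at 290 ± 11.1 TPM. Angptl4 (104 ± 20.6), Pltp (83.4 ± 16.9), Lipc (78.9 ± 13.6) and Mttp (73.5 ± 9.24 TPM) came next, and among these 4 each overlapped the one after it across mice. Angptl8 at 57.2 ± 1.96, Tm6sf2 at 42.1 ± 4.18 and Lipg at 7.94 ± 2.77 TPM followed, each below the one before it in every control mouse. In SHMT2HKO livers the levels were 699 ± 98.9 for Lcat, 434 ± 55.4 for Sar1b, 126 ± 76.1 for Pltp, 123 ± 8.42 for Lipc, 117 ± 51.3 for Angptl4, 111 ± 29.3 for Mttp, 41.4 ± 11.8 for Angptl8, 40.4 ± 11.2 for Tm6sf2 and 11.2 ± 7.59 TPM for Lipg. Pltp to Mttp again overlapped along the order, and so did Angptl8 and Tm6sf2. The ranks of 4 genes in SHMT2fl/fl livers changed when the longest transcript was used as length, as for Mttp, whose summed exons are 6206 bases and longest transcript 3963 bases.

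**Figure D3:**
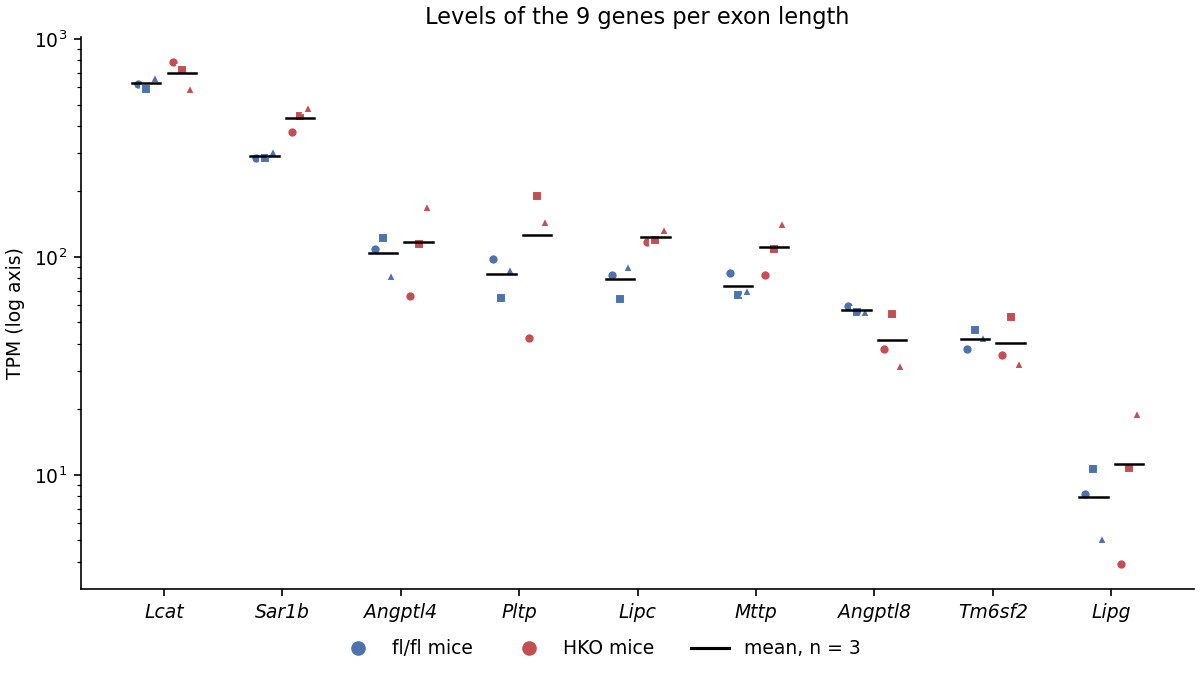
Levels of the 9 genes in TPM (log axis), SHMT2fl/fl mice in blue and SHMT2HKO mice in red, each point a mouse and each bar a mean of 3. Lcat and Sar1b lie above the rest, and Lipg lies lowest in both genotypes.

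Ratios between genes of one library do not depend on the scaling of libraries, and 9 of them, chosen after the values were seen, were formed from TPM. With 3 mice against 3 a two-sided exact permutation test cannot go below p = 0.1, and the smallest value adjusted over the 9 ratios was 0.129. The ratio of Sar1b to Sar1a was 3.003, 3.22 and 3.25 in SHMT2fl/fl mice and 6.09, 7.37 and 6.17 in SHMT2HKO mice, 2.07 times as high without overlap. The ratio of Mttp to Apob, its lipid-accepting partner, went from 0.143 ± 0.0152 to 0.190 ± 0.0283, and that of Mttp to P4hb, which codes for the small subunit of the same transfer protein, from 0.0565 ± 0.00436 to 0.0756 ± 0.00969 (SD, n = 3 each). Both were without overlap between genotypes, at 1.32 and 1.34 times the control mean.

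Relative to Alb, the albumin gene, Mttp was 1.43, Sar1b 1.42 and Lipc 1.504 times as high in SHMT2HKO as in SHMT2fl/fl livers. These ratios did not overlap between genotypes (exact permutation p = 0.1 for each, adjusted 0.129), but for Mttp the groups nearly touched. Scaled by a constant, the Mttp ratio was 1.81, 1.72 and 1.33 in SHMT2fl/fl mice and 1.83, 2.02 and 3.08 in SHMT2HKO mice. Its knockout mean was thus raised by mouse 3. How often other pairs of genes separate the genotypes in this way was not tested. The ratio of Angptl4 to Lpl was 1.43, 2.59 and 1.31 in SHMT2fl/fl mice and 3.99, 12.0 and 10.7 in SHMT2HKO mice. It did not overlap between genotypes. Most of this difference lay in Lpl, at 61.6 ± 14.4 TPM in SHMT2fl/fl and 14.0 ± 3.84 TPM in SHMT2HKO livers. Angptl4 itself was 104 ± 20.6 and 117 ± 51.3 TPM, with overlap (SD, n = 3 each). For Lcat to Apoa1, which codes for the apolipoprotein that activates LCAT, the ratio was 0.0319 ± 4.27e-05 and 0.0312 ± 0.0030 (exact permutation p = 0.7), and for Lipc to Lipg it overlapped widely (exact permutation p = 0.6).

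**Figure D4:**
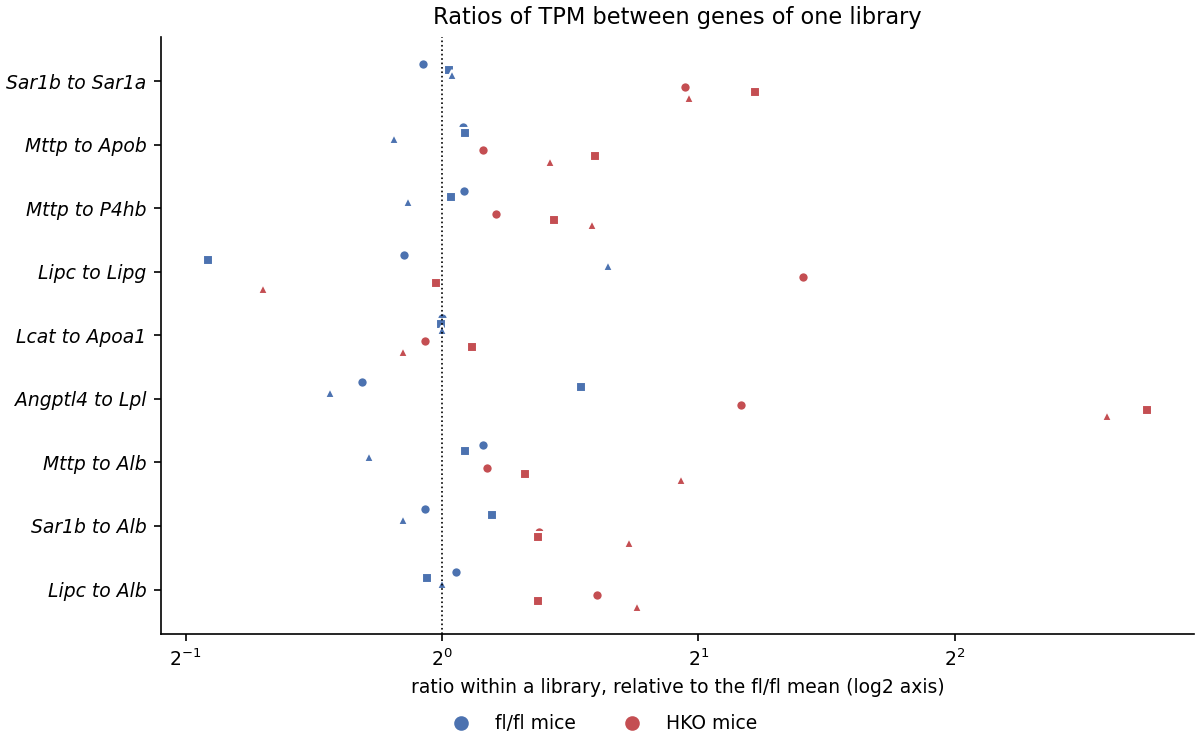
Ratios of TPM between gene pairs within each library, divided by the SHMT2fl/fl mean of that ratio (log2 axis); blue points are SHMT2fl/fl and red points SHMT2HKO mice. The red points lie right of all blue points for 7 ratios, while for Lipc to Lipg the 2 ranges overlap and for Lcat to Apoa1 the red points lie on both sides of the blue ones.

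The other genes of VLDL assembly and ER export were higher in the majority of cases with TMM. Of 28 genes, 17 were called higher and 1 lower. Their median log2 fold change was 0.48, beside 0.03 for all genes and 0.62 for the 10 hepatocyte markers. Apob, the structural protein of VLDL, was 2498 ± 205 against 3869 ± 219 CPM (log2 fold change 0.63 ± 0.17 SE, adjusted p = 0.0269, edgeR), and P4hb was 1298 ± 56.6 against 1991 ± 115 CPM (0.62 ± 0.16 SE, adjusted p = 0.0212, edgeR). The largest called increases were in Ces1d, a carboxylesterase of triglyceride mobilization (1.04, adjusted p = 0.0335, edgeR), Aadac, an arylacetamide deacetylase (0.84, adjusted p = 0.00555, edgeR) and Cideb, a lipid droplet protein of VLDL lipidation (0.83, adjusted p = 0.00358, edgeR). Ces1d overlapped between genotypes, at 178, 292 and 227 CPM in SHMT2fl/fl mice and 287, 621 and 522 CPM in SHMT2HKO mice. Sort1, which codes for the sorting receptor sortilin, was lower, at -0.92 (adjusted p = 0.0241, edgeR). Without TMM only 1 of the 28 was called higher and 4 lower, with a median of 0.05, and with ERCC or hepatocyte marker scaling 0 were called higher (0 at an unadjusted p under 0.05 in both, edgeR), with medians of -0.26 and -0.08. Apob and P4hb were 0.21 and 0.19 without TMM and turned negative with ERCC scaling, at -0.07 and -0.11, none of them called. Leaving out one mouse brought the number called higher to between 4 and 15, lowest without SHMT2fl/fl mouse 2 or 3, and the number called lower to between 0 and 3, with 0 without any 1 of the SHMT2fl/fl mice.

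Among 17 genes of lipoprotein lipase and endothelial lipase regulation, 8 were called higher and 1 lower, with a median of 0.56. Lpl, which codes for lipoprotein lipase itself, was 254, 188 and 228 CPM in SHMT2fl/fl mice and 94.6, 52.6 and 65.9 CPM in SHMT2HKO mice, and fell by 1.65 ± 0.23 on the log2 scale (SE; adjusted p = 0.00223, edgeR). Lpl is known from macrophages and stromal cells of the liver, and the summed macrophage and stellate cell markers given above were lower too. Of these markers, 3 macrophage and 1 stellate cell marker were called higher. The part of the markers in the Lpl value was not tested. Lpl was called lower under every scaling tried, at -2.08 without TMM, -2.24 with hepatocyte marker scaling and -2.43 with ERCC scaling. Angptl6, another member of the family, rose most, by 2.52 (adjusted p = 0.000912, edgeR), with 3.24 ± 0.774 CPM in SHMT2fl/fl and 18.7 ± 4.26 CPM in SHMT2HKO livers, and was also called without TMM (2.09) and with hepatocyte marker (1.98) and ERCC scaling (1.80). Apoc3, an apolipoprotein that inhibits lipoprotein lipase, and Pcsk6, a proprotein convertase, rose by 1.16 (adjusted p = 0.0167, edgeR) and 1.02 (adjusted p = 0.00647, edgeR), and Lmf1, the ER factor for lipase maturation, rose by 0.84 (adjusted p = 0.00704, edgeR). Gpihbp1, which anchors lipoprotein lipase on capillaries, was 24.8 ± 3.06 against 22.9 ± 1.79 CPM (adjusted p = 0.556, edgeR). Without TMM 3 were called higher and 3 lower, with ERCC or hepatocyte marker scaling 1 was called higher, and without single mice 5 to 10 were, 5 without any 1 of the SHMT2fl/fl mice or SHMT2HKO mouse 2.

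Of 14 genes of HDL formation and exchange, 5 were called higher and 2 lower, with a median of 0.63. The increases with the largest values were Saa4, an HDL apolipoprotein of the serum amyloid family (1.997, adjusted p = 0.0378, edgeR), Apoa2, a major HDL apolipoprotein (1.55, adjusted p = 0.00888, edgeR) and Pon1, the HDL-bound paraoxonase (1.31, adjusted p = 0.00374, edgeR). Saa4 was 150 ± 30.3 CPM in SHMT2fl/fl mice (SD, n = 3) and 1179, 380 and 238 CPM in SHMT2HKO mice 1, 2 and 3. Abcg1, a sterol exporter, fell by 1.09 (adjusted p = 0.00305, edgeR) and Pla2g7, the lipoprotein-associated phospholipase, by 1.06 (adjusted p = 0.00712, edgeR) on the log2 scale. Both Abcg1 and Pla2g7 are known from macrophages. Abca1, which loads lipid onto apolipoprotein A-I, was 129 ± 19.2 against 133 ± 9.84 CPM, and Scarb1, the HDL receptor, 205 ± 28.5 against 224 ± 11.4 CPM (adjusted p = 0.842 and 0.555, edgeR); without TMM their log2 fold changes were -0.37 and -0.29. DESeq2 called 8 higher, the fit without TMM called 4 lower, ERCC scaling called 0 higher (1 at an unadjusted p under 0.05, edgeR) and hepatocyte marker scaling 3 higher and 4 lower. Leaving out any 1 SHMT2fl/fl mouse left 3 called higher.

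Of 12 lipoprotein receptors and their partners, 3 were called higher and 1 lower, with a median of 0.18. Stab2, a scavenger receptor of sinusoidal endothelium, rose by 0.55 (adjusted p = 0.00781, edgeR), while Sorl1, a sorting receptor, fell by 1.28 (adjusted p = 0.0166, edgeR). With ERCC or hepatocyte marker scaling 0 were called higher (0 at an unadjusted p under 0.05 in both, edgeR), and without TMM 1 was called higher and 3 lower. Stab2 turned to -0.15 with ERCC scaling. The Sorl1 call was lost without SHMT2fl/fl mouse 2 or 3, each of which left 0 genes called lower.

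Genes that are known to regulate the 9 members, and 2 sets of targets of such regulators, were counted in the same way. Of 20 transcription regulators, 9 were called higher and 0 lower (edgeR; 1 lower at an unadjusted p under 0.05; 0 lower with DESeq2 and limma-voom), with a median of 0.51. Ppara, the fatty acid receptor PPARα, rose by 1.10 (adjusted p = 0.00369, edgeR), Mlxipl, which codes for ChREBP, by 1.09 (adjusted p = 0.00324, edgeR) and Foxa1, a forkhead factor, by 0.94 (adjusted p = 0.0443, edgeR). Without TMM the counts were 3 higher and 2 lower, and with ERCC and hepatocyte marker scaling 0 were higher (0 and 1 at an unadjusted p under 0.05, edgeR).

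Of 16 PPAR target genes, 10 were called higher and 0 lower (0 at an unadjusted p under 0.05, edgeR; 0 with DESeq2 and limma-voom), with a median of 0.80. Fabp1, the liver fatty acid binding protein, rose by 1.68 (adjusted p = 0.00269, edgeR) and Vnn1, a pantetheinase, by 1.13 (adjusted p = 0.00343, edgeR). Angptl4 is a known PPAR target as well, and its value of 0.58 did not pass. The list's count was 3 without TMM, 0 with ERCC scaling (1 at an unadjusted p under 0.05, edgeR) and 2 with hepatocyte marker scaling, and 5 or 6 without any 1 of the SHMT2fl/fl mice.

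Of 14 targets of insulin, SREBP-1c and ChREBP, 12 were called higher and 0 lower (0 at an unadjusted p under 0.05, edgeR; 0 with DESeq2 and limma-voom), with a median of 1.46. Pnpla3, a lipid droplet hydrolase, rose by 2.85 (adjusted p = 0.00434, edgeR), Thrsp, a regulator of lipogenesis, by 2.81 (adjusted p = 0.00517, edgeR) and Acacb, which makes malonyl-CoA at mitochondria, by 2.20 (adjusted p = 0.0043, edgeR). Angptl8, which also responds to insulin, had the value of 0.04 given above. This list kept 4 genes called higher with ERCC scaling and 6 with hepatocyte marker scaling.

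**Figure D5:**
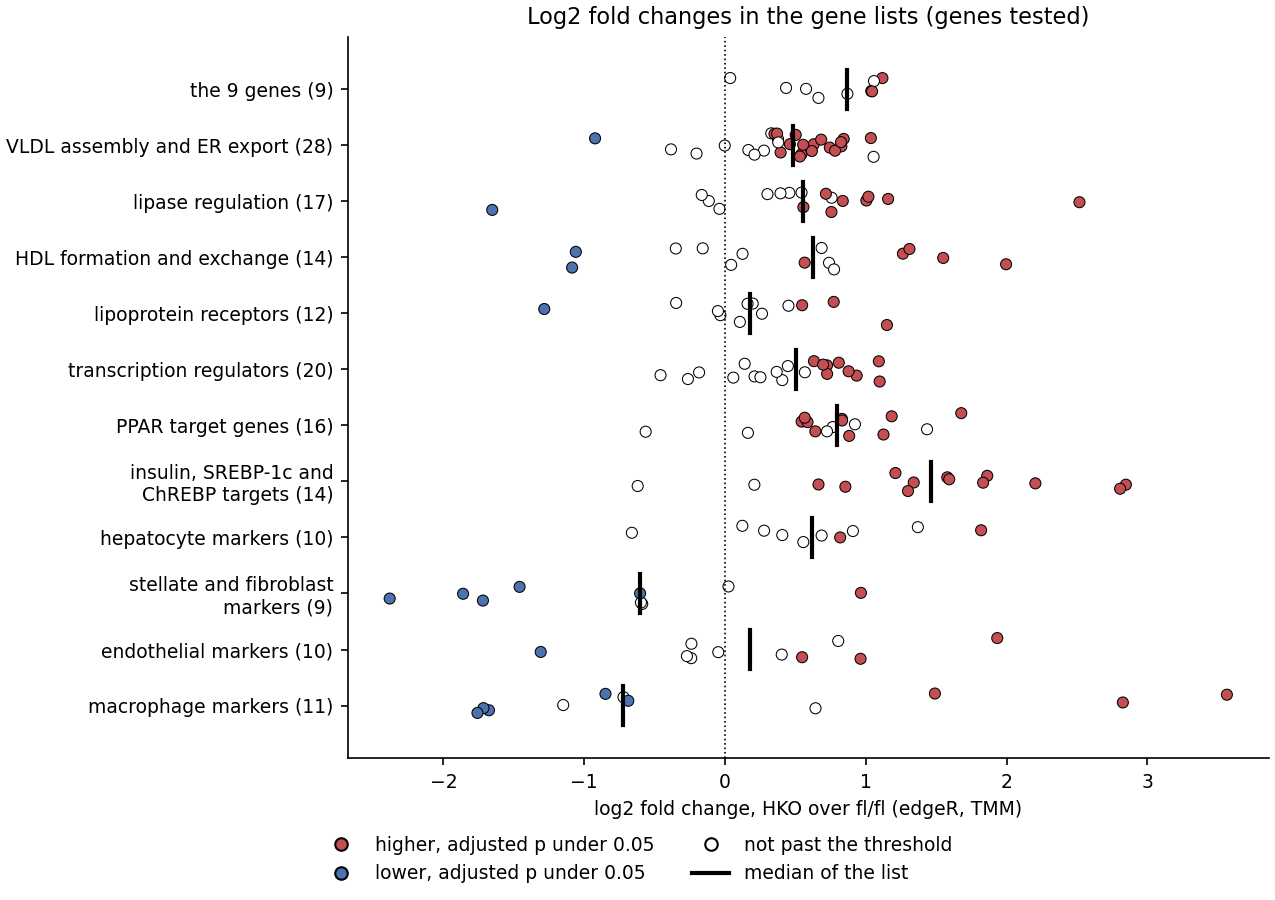
Log2 fold changes (edgeR, TMM) of the 9 genes, of 7 lists of related genes and of 4 lists of cell type markers, each point a gene, with the number of genes tested in brackets. Red and blue points passed an adjusted p of 0.05 upward or downward, white points did not, and the black bar is the median, which runs from -0.72 for macrophage markers to 1.46 for the insulin, SREBP-1c and ChREBP targets.

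The genes whose level over the 6 mice ran most like each member were found among 12325 genes by the root mean square difference of centred log2 CPM. Lcat had the closest companions, Ppdpf (0.032), Pop5 (0.037) and Cox6a1 (0.039 log2 units), while the median gene differed from Lcat by 0.45. Sar1b ran most like Sord (0.043), Miga2 and Pygl, Tm6sf2 like Etnk2 (0.057), Gm5424 and 2810414N06Rik, and Mttp like mt-Nd5 (0.059), Chpt1 and Iqgap2. Lipc ran most like Rgs3 (0.059), Rtp3 and Mbl2, Angptl4 like Mfsd2a (0.074), Trim7 and Dcun1d3, and Angptl8 like 2410022M11Rik (0.114), Zfp113 and 4921531C22Rik. Lipg and Pltp had no companion as close, the nearest being 1810053B23Rik (0.226), Tsku and Ppp1r3b for Lipg and Fam126a (0.25), Nt5e and Hmgcs1 for Pltp. With 6 mice these are descriptions of likeness in these livers.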

How the data were processed

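RNA-seq was performed on whole liver of 3 SHMT2fl/fl (label WT) and 3 SHMT2HKO (label KO) mice, with ERCC spike-ins. Reads were trimmed with Trimmomatic 0.36 and aligned to GRCm38 with STAR 2.5.2b, and uniquely mapped reads were counted per gene (featureCounts, Subread 1.5.2, in the submitters' processing notes). The deposited values are raw counts per gene made by the authors; strand use in counting is not given in the sources used here. The 92 ERCC rows were kept out of library sizes. Genes were filtered with filterByExpr, scaled by TMM and tested with the edgeR 4.0.16 quasi-likelihood F test (robust, R 4.3.3), with Benjamini-Hochberg adjustment over 16089 genes. An adjusted p under 0.05 was called. DESeq2 1.42.0 and limma 3.58.1 with voom (the authors' own kind of test), other scalings and filters, a replicate block and leaving out each mouse were alternatives. TPM used summed GENCODE M21 exon lengths (GRCm38); 345 gene IDs without a length held 0.0416% of counts. RefSeq promoters were read from GRCm38.p6. Fits were tested on simulated counts: 83.5% of 200 genes changed 4-fold were recovered among 15686 genes, with 13 false calls (7.22% of the calls). As many genes were raised as lowered, so this check does not bear on the choice of scaling or on smaller changes. Depth was 23090837 to 34089722 gene counts per library. All replicate pairs differed beyond sampling noise, and the labels give separate samples. The p-values of the fits set the difference between genotypes against the spread between these mice. With no group that carries Cre alone, effects of Cre and of the deletion cannot be told apart.

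The members and lists were chosen with earlier results of these data known. Genes named are Shmt2, the 9 members, direct partners (Apob, P4hb, Lpl, Gpihbp1, Lmf1, Scarb1 and Abca1), up to 3 called genes per list and direction by size, and the 3 genes most like each member among genes with a mean of at least 1 log2 CPM. A few genes that this rule takes are not reported here. Sar1a, Ctsa, Trmt10a, Alb, Apoa1, Cfd, Lyz2, Clec4f, Clec4g and Emcn were named after their values were seen.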

Additional observations from a re-analysis of the deposited data

How the results depend on the processing

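Of the 9 genes, Mttp, Sar1b and Lipc stayed positive in 16 of 16 alternative fits and passed in 14. They did not pass with ERCC scaling (0.36, 0.31 and 0.35 on the log2 scale) or hepatocyte marker scaling, which was chosen after seeing the data (0.51, 0.49 and 0.55); the scaling factors alone differ in these fits. Tm6sf2 turned to -0.0204 without TMM, -0.40 with ERCC and -0.17 with hepatocyte marker scaling, and Lcat to -0.19 with ERCC scaling. Angptl8 was -0.0573 with limma-voom, -0.42 without TMM, -0.0514 with upper quartile scaling, -0.83 with ERCC scaling, -0.0058 with 10 counts required in every sample, -0.0312 with the replicate block and -0.58 with hepatocyte marker scaling. Lcat passed with DESeq2 (0.67) and with no filter beyond 1 count (0.64), and Pltp with DESeq2 (1.08). The cause was not tested.

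Genes called higher numbered 539 without TMM, 107 with ERCC scaling and 243 with hepatocyte marker scaling, against 2012, and genes called lower 4923 without TMM, against 2651. Of the 9 genes, DESeq2 called 5 higher, beside 2535 called higher among all 16089 genes tested. ERCC and hepatocyte marker scaling called 0 of the 9 higher each (0 and 2 at an unadjusted p under 0.05, edgeR). Without TMM the lists had the following calls higher and lower: VLDL assembly 1 and 4, lipase regulation 3 and 3, HDL 4 and 4, receptors 1 and 3, regulators 3 and 2, and PPAR targets 3 higher. With ERCC scaling 0 genes were called higher in the VLDL, HDL, receptor, regulator and PPAR lists, 1 in the lipase list and 4 in the insulin list. With hepatocyte marker scaling the VLDL, receptor and regulator lists had 0 higher, the lipase list 1, the HDL list 3 (4 lower), the PPAR list 2, the insulin list 6, and 2 regulators were lower. Upper quartile scaling left 10 VLDL genes higher and 1 regulator lower, and DESeq2 called 8 HDL genes higher.

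With single mice left out, 805 to 2521 genes were called higher and 1621 to 3076 lower, fewest without SHMT2fl/fl mouse 3, and 3 to 6 of the 9 genes. Calls higher ranged over 4 to 15 VLDL, 5 to 10 lipase, 3 to 7 HDL and 5 to 12 PPAR genes, and calls lower over 0 to 3 VLDL genes and 0 to 1 receptors, PPAR and insulin targets. Log2 fold changes ranged over 0.12 to 0.65 for Tm6sf2, 0.49 to 0.85 for Lcat, 0.44 to 1.25 for Lipg, 0.48 to 1.45 for Pltp, 0.38 to 0.81 for Angptl4 and -0.27 to 0.27 for Angptl8.

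Mice sharing a number did not deviate together (correlations of -0.0459, 0.0125 and -0.0766). The labels do not say what the numbers stand for, and with 3 mice per group this check cannot exclude a pairing. With the replicate block 1397 genes were called higher and 2187 lower, 3 of the 9 genes, 9 VLDL genes and 3 HDL genes. With the longest transcript as length, 4 of the 9 genes changed rank. At these depths 3 counts were at most 0.152 CPM, far below every member's level.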
